A study of Mus musculus with 20 samples.

Results

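Lower glycolysis turns fructose-1,6-bisphosphate into pyruvate, and 10 genes that encode its enzymes were followed in the hearts of iron-deficient anemic mice. They are aldolase (*Aldoa*, *Aldoc*), triosephosphate isomerase (*Tpi1*), glyceraldehyde-3-phosphate dehydrogenase (*Gapdh*), phosphoglycerate kinase (*Pgk1*), phosphoglycerate mutase (*Pgam1*, *Pgam2*), enolase (*Eno1*, *Eno3*) and pyruvate kinase (*Pkm*). They were chosen by name, as the enzymes of these steps with their main muscle and non-muscle isoforms, and all 10 were found among the 23420 genes counted. Of these, 8 passed the filter on low counts, while *Aldoc* and *Eno1* did not.

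The samples were whole hearts of wild-type male C57BL/6 mice at 9 weeks of age. A control diet was given to 10 mice, and an iron-deficient diet to another 10 (IDA mice), in both cases for 6 weeks from an age of 3 weeks. For the iron-deficient diet, the labels disagree, with less than 2 ppm iron in one place and more than 2 ppm in another. The study's methods give a range that starts at 2 ppm for it, and describe the control diet as iron-adjusted. Both groups otherwise shared strain, genotype, sex and age, and each library came from the heart of 1 mouse. The study dropped a contaminated sample of each group that it did not name, so the 20 libraries used here include these. Since whole tissue was measured, fewer cells of a type and less RNA per cell cannot be told apart.

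The reactions from aldolase to enolase are reversible, whereas that of pyruvate kinase is not, and ATP is made by phosphoglycerate kinase and pyruvate kinase. Adult striated muscle relies on the isoforms encoded by *Aldoa*, *Pgam2* and *Eno3*, whereas *Aldoc*, *Pgam1* and *Eno1* are known from brain, from embryonic tissue and from most other organs. Several of these genes are established targets of the hypoxia-inducible factor HIF-1, whose core recognition sequence is ACGTG or its variant GCGTG, which is the reason to follow them in anemia.

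In the IDA hearts, 7 of the 8 tested genes had higher levels than in control hearts, and none had lower levels. The exception was *Pgam1*. The differences were small, from 1.11-fold for *Aldoa* to 1.32-fold for *Gapdh*, and for every one of the 10 genes the ranges of the groups overlapped. They were called with edgeR's quasi-likelihood test at a Benjamini-Hochberg adjusted p below 0.05 over 13590 genes. At that threshold, 35.0% of all tested genes were called higher and 32.5% lower, and the median log2 fold change was 0.17 over the 8 genes against 0.02 over all tested genes. DESeq2 called the same 7 genes higher and none lower, and at an unadjusted p below 0.05 there were also 7 higher and 0 lower. For that unadjusted threshold, the share of all tested genes was not counted. The calls depended on gene length and on library size, as described further on.

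Total counts per library lay between 6797180 and 8960688 read pairs in the control group and between 6682177 and 7833916 in the IDA group. Levels are given in CPM, the read pairs of a gene scaled to the total of its library over the tested genes, adjusted by that library's TMM factor. The TMM factor is the normalization factor that edgeR fits to each library, so the CPM do not follow from the total counts alone. Cardiomyocyte markers summed to 4639 to 5562 CPM in control and 4112 to 5723 CPM in IDA hearts, with 4 of the 9 called higher and 1 lower. Of 6 endothelial markers, 1 was higher and 4 lower (1459 to 1697 CPM in control and 1184 to 1592 CPM in IDA hearts in sum), and of 4 tested leukocyte markers 3 were higher and 1 lower (163 to 200.3 CPM and 180.6 to 219 CPM). Erythroid markers did not overlap, with 51.8 to 126.0 CPM in control and 136.3 to 593 CPM in IDA hearts. Of 14 listed erythroid genes, 10 were counted, *Hba-a1*, *Hba-a2* and *Hbb-b2* were at 0 in every library, and *Alas2* gave 77.1% of the sum. Skeletal muscle markers, which matter for the muscle isoforms, summed to 212 to 315 CPM in control and 263 to 340 CPM in IDA hearts. Of the sum, 93.9% came from *Acta1*, and 2 of the 6 tested were higher. These were *Mylpf* at 0.58 and *Tnni2* at 0.53 on the log2 scale (adjusted p = 0.00907 and 0.0117, edgeR). *Acta1* (0.11, adjusted p = 0.198, edgeR), *Tnnt3*, *Atp2a1* and *Pvalb* were not called. The part of these cell types in the differences was not tested.

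*Aldoa* encodes the muscle aldolase, which splits fructose-1,6-bisphosphate into a pair of triose phosphates. It lies on chromosome 7 of mm10, from 126795234 to 126800447 on the minus strand, with 1824 bp of exons. In control hearts, its level ran from 278 to 365 CPM with a median of 314 CPM, and in IDA hearts from 323 to 388 CPM with a median of 370 CPM. The control mean was exceeded in all 10 IDA mice, and the highest control mouse in 6. The means were 322 ± 28.5 CPM and 358 ± 24.4 CPM (SD, n = 10 each), a rise of 0.15 on the log2 scale (SE 0.05, adjusted p = 0.00977, edgeR), where SE is the standard error of the fitted difference.

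*Aldoc*, the aldolase gene known from brain, lies on chromosome 11 from 78324198 to 78326760. It was near the limit of detection, with 1 to 6 read pairs per library in control (median 3.5) and 3 to 14 in IDA hearts (median 6.5). Together, 35 read pairs were counted in the 10 control libraries and 69 in the 10 IDA libraries, and 5 IDA mice were above every control mouse in CPM. It did not pass the filter, and a fit without that filter put it 1.03 higher on the log2 scale (SE 0.29, adjusted p = 0.00389, edgeR). In that fit, 8 of the 10 genes and 25.8% of 18874 genes were called higher.

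Within each mouse, the ratio of *Aldoa* to *Aldoc* read pairs needs no scaling to the library total, although the read pairs of *Aldoa* hardly changed with that total, as given further on, and the ratio could not be corrected for depth per base. Its log2 value, with 0.5 added to each count, was 9.38 ± 0.65 in control and 8.54 ± 0.54 in IDA hearts (SD, n = 10 each). The ratio was lower in the IDA group by 0.85 on the log2 scale (two-sided permutation test with 100000 resamples, p = 0.00428, adjusted over 3 isoform pairs p = 0.0128), and 9 of 10 IDA mice were below the control mean.

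*Tpi1* encodes the isomerase that turns dihydroxyacetone phosphate into glyceraldehyde-3-phosphate. It lies on chromosome 6, from 124810592 to 124814296, and 23 of its 1601 exonic bases overlap *Spsb2*. Control hearts had 206 to 273 CPM (median 232.7 CPM) and IDA hearts 247 to 289 CPM (median 279 CPM). The group means were 238.7 ± 21.7 and 272 ± 17.1 CPM, and every IDA mouse exceeded the control mean. *Tpi1* rose by 0.19 on the log2 scale (SE 0.05, adjusted p = 0.00199, edgeR).

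*Gapdh* encodes the dehydrogenase that forms NADH and 1,3-bisphosphoglycerate. Only 44 to 77 read pairs per library were counted for it in control hearts (5.73 to 9.45 CPM, median 7.48 CPM) and 53 to 120 in IDA hearts (7.83 to 15.0 CPM, median 9.51 CPM). The highest value, 120 read pairs, came from IDA mouse 4, and 5 IDA mice were above all control mice. It rose by 0.41 on the log2 scale (SE 0.12, adjusted p = 0.00363, edgeR), the largest among the 8 tested members. *Gapdh* lies on chromosome 6 from 125161852 to 125165583.

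*Pgk1*, the kinase that makes the first ATP of the pathway, lies on chromosome X from 106187124 to 106203699. Levels ran from 24.8 to 30.5 CPM in control (median 28.5 CPM) and from 29.9 to 35.2 CPM in IDA hearts (median 33.4 CPM). Of the 10 IDA mice, 9 were above the highest control mouse, the clearest separation among the members. Its rise was 0.24 on the log2 scale (SE 0.05, adjusted p = 0.000183, edgeR).

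*Pgam2* encodes the muscle phosphoglycerate mutase, and *Pgam1* the form of brain and most other tissues. *Pgam2*, on chromosome 11 from 5801637 to 5803796, is the shortest member with 906 bp of exons. It had 134 to 175 CPM in control (median 148 CPM) and 158 to 183 CPM in IDA hearts (median 178 CPM), and 7 IDA mice were above every control mouse. The rise came to 0.19 on the log2 scale (SE 0.05, adjusted p = 0.00149, edgeR).

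*Pgam1*, on chromosome 19 from 41911871 to 41918665, had 8.58 to 13.4 CPM in control (median 11.98 CPM) and 10.4 to 13.9 CPM in IDA hearts (median 11.9 CPM). The groups covered nearly the same range, and its log2 fold change of 0.08 did not pass the test (SE 0.09, adjusted p = 0.40, edgeR). The 95% interval of the fold, from its standard error, ran from 0.942 to 1.19, and the 1.14-fold difference of *Pgam2* lies inside it. The log2 ratio of *Pgam2* to *Pgam1* was 3.75 ± 0.21 in control and 3.84 ± 0.15 in IDA hearts, a difference of 0.10 that did not pass (permutation test, p = 0.247, adjusted over 3 pairs p = 0.371).

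*Eno3* encodes the muscle enolase and lies on chromosome 11 from 70657176 to 70662513. It had 273 to 354 CPM in control (median 301 CPM) and 303 to 374 CPM in IDA hearts (median 359 CPM), with 6 IDA mice above all control mice and 8 above the control mean. Its level rose by 0.16 on the log2 scale (SE 0.05, adjusted p = 0.00997, edgeR).

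*Eno1*, the enolase of most other tissues, was counted with 1 to 7 read pairs per library in control and 1 to 5 in IDA hearts, and was not tested. The fit without a filter put it at 0.01 on the log2 scale (SE 0.32, adjusted p = 0.98, edgeR). It lies on chromosome 4 from 150237197 to 150248873, and 1649 of its 1776 exonic bases are also annotated as exons of *Gm5506*. The counting command names no option that keeps read pairs falling on exons of 2 genes, so the count of *Eno1* rests on the other 127 bases. *Gm5506* itself had 45 to 63 read pairs in control and 52 to 75 in IDA libraries. The log2 ratio of *Eno3* to *Eno1* differed by 0.12 between the groups (permutation test, p = 0.694, adjusted over 3 pairs p = 0.694), and given the overlap it cannot be read as the share of the enolase isoforms.

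*Pkm* encodes the pyruvate kinases PKM1 and PKM2, which differ by a pair of alternative exons and which gene counts do not separate. It lies on chromosome 9 from 59656368 to 59679375, with 2599 bp of exons, the longest member. Control hearts had 344 to 447 CPM (median 384 CPM) and IDA hearts 408 to 476 CPM (median 449 CPM), and 6 IDA mice were above every control mouse. The IDA group was 0.16 higher on the log2 scale (SE 0.05, adjusted p = 0.00378, edgeR).

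**Figure D1:**
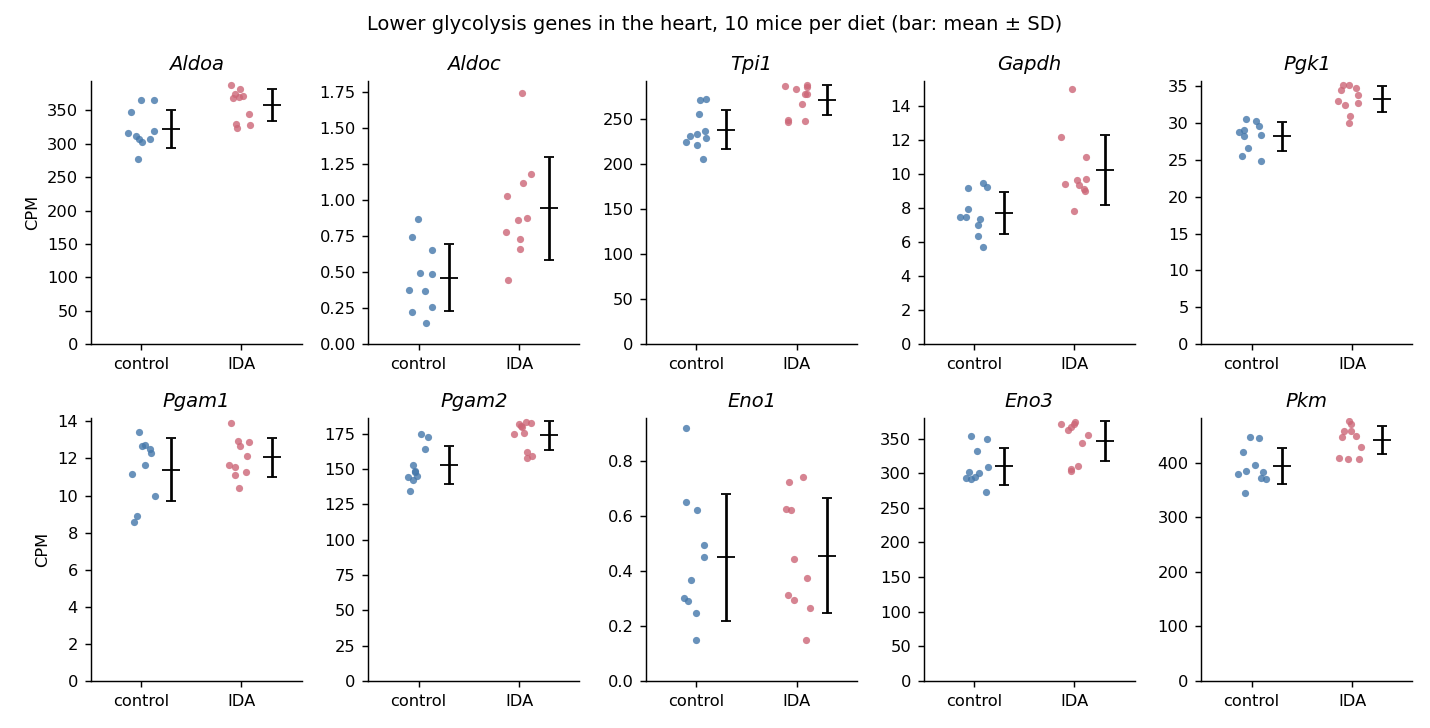
CPM (vertical axes, starting at 0) of the 10 genes in each of 10 control mice (blue) and 10 IDA mice (red), with mean ± SD as black bars. The IDA points lie higher for 7 of the 8 tested genes, the groups overlap in every panel, and *Aldoc* and *Eno1* stay below 2 CPM.

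Levels of different members are compared per length, as counted. In CPM per kb of exons, control hearts had 193 ± 16.7 for *Eno3*, 177 ± 15.6 for *Aldoa*, 168 ± 15.0 for *Pgam2*, 152 ± 12.8 for *Pkm* and 149 ± 13.6 for *Tpi1* (SD, n = 10). Across mice these 5 ranges overlapped, although within every one of the 10 control libraries each gene was above the next in this order. These 5 genes had at least 1 read pair per base, and their counts hardly changed with the library total, as given further on. Whether their order follows expression was not tested. As counted, *Pgk1* had 15.6 ± 1.07 CPM per kb, *Gapdh* 6.26 ± 1.01 and *Pgam1* 6.22 ± 0.925, and the last pair did not differ beyond their spread, *Gapdh* being the higher in 3 of 10 control libraries. *Aldoc* had 0.272 ± 0.138 CPM per kb. *Eno1* had 0.0276 read pairs per base over the 127 bases outside *Gm5506* in control hearts, where *Aldoc* had 0.0021 and *Pgam1* 0.048 per exonic base.

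*Gapdh*, whose step lies between *Tpi1* and *Pgk1*, has many near-identical copies in the genome. Of the windows of 75 bases in its transcript (GENCODE annotation of GRCm38), 80.3% also occurred in transcripts of other genes, 121 in all, of which 115 are annotated as pseudogenes. The share was 67.5% for *Pgk1*, mostly shared with *Pgk1-rs7*, 65.4% for *Eno1*, mostly shared with *Eno1b*, and 40.6% for *Pgam1*, mostly shared with *Pgam1-ps2*. It was 19.6% for *Pkm*, 2.48% for *Tpi1* and 1.49% for *Aldoa*, and 0 for *Aldoc*, *Pgam2* and *Eno3*. A read pair inside a shared stretch can align to several places, and the counting command names no option that keeps such pairs. The levels of *Gapdh*, *Pgk1*, *Pgam1* and *Eno1* are therefore uncertain, and an order between these and the other members cannot be read from them.

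**Figure D2:**
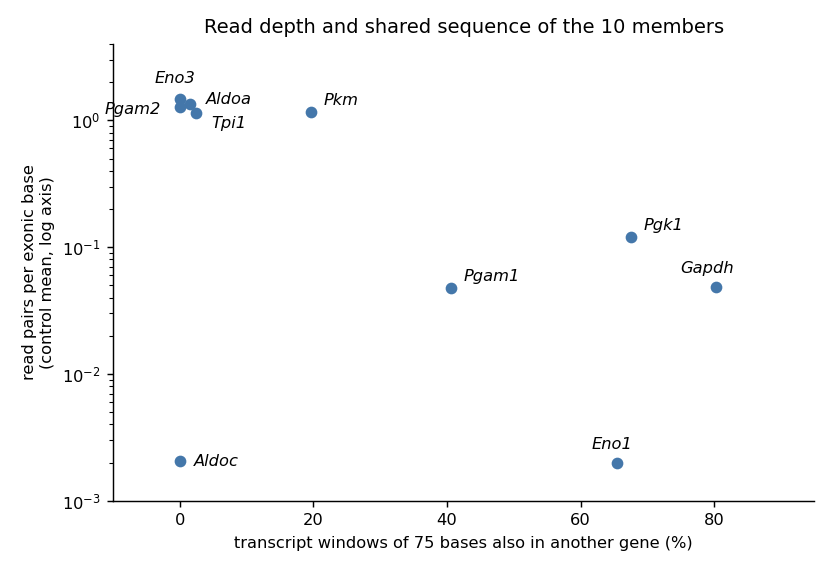
Read pairs per exonic base (vertical log axis, control mean) of the 10 genes against the percentage of their 75-base transcript windows that occur in another gene (horizontal axis). Each point is 1 gene. The 5 genes above 1 read pair per base share at most 19.6% of their windows, and *Gapdh*, *Pgk1*, *Eno1* and *Pgam1* share 40.6% or more, while *Aldoc* is low without shared windows. *Eno1* is drawn over its whole exonic length, including the overlap with *Gm5506*.

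The promoters of 3 members are shown because they contrast the motif of HIF-1 with the call: *Pgk1* holds ACGTG and was called higher, *Pgam1* holds both forms and was not called, and *Pgam2* holds neither and was called higher. The contrast between *Pgam1* and *Pgam2* is one of calls only, since their ratio did not pass the test and *Pgam2* was called lower once gene length was removed. Each run gives the 250 bases before a RefSeq transcript start (GRCm38.p6), 5′ to 3′ on the strand of the gene, with ACGTG, the variant GCGTG and their reverse complements in capitals. The windows are chrX:106186850-106187099 on the plus strand, chr19:41911621-41911870 on the plus strand and chr11:5803797-5804046 on the minus strand.
Pgk1: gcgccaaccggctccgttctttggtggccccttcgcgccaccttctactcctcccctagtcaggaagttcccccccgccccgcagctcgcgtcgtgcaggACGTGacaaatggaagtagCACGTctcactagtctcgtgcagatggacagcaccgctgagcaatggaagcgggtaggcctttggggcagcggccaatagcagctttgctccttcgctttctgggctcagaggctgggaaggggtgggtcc
Pgam1: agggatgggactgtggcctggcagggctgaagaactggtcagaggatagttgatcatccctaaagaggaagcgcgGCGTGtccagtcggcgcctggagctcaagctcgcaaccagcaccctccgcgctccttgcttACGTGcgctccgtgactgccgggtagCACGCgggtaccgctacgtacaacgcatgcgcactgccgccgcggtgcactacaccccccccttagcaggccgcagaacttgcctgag
Pgam2: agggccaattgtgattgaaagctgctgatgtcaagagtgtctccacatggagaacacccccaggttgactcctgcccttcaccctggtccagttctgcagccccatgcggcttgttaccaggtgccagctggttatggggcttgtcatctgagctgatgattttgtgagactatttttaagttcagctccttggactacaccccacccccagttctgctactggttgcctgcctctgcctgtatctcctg

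In *Pgk1*, the motif ACGTG began 150 bases before the start, and its reverse complement 131 bases before it. In *Pgam1*, ACGTG began 114 bases before the start, with GCGTG on either side on opposite strands. For the start nearest to that of the counted gene, ACGTG was present in 2 of the 10 members and in 16.6% of 32851 RefSeq windows, and GCGTG in 5 of the 10 and in 28.2% of the windows. The 5 with GCGTG were *Aldoc*, *Gapdh*, *Pgam1*, *Eno1* and *Eno3*. Counting the other listed starts as well, ACGTG was found for 4 members, with *Aldoa* and *Pkm* added. A match describes the letters in the window and not a bound site, and no match says only that these letters are not in it.

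The spread of the counts differed between the members. *Aldoa*, *Tpi1*, *Pgam2*, *Eno3* and *Pkm* had at least 1 read pair per exonic base, from 1.14 for *Tpi1* to 1.47 for *Eno3* in control hearts. The highest of any gene of at least 200 bp lay between 2.06 and 2.39 in the 20 libraries. Duplicate read pairs had been removed before counting, and the part of this step was not tested. The counts of these 5 genes were nearly the same in every library. *Aldoa* had 2410 to 2540 read pairs in control libraries, a range of 1.05-fold, while the library totals of the same mice ranged over 1.32-fold.

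Control mouse 8, which had the largest library, had the lowest CPM of the group for all 5 of these genes. Control mouse 2, which had the smallest, had the highest for 3 of them. The variance of the counts in control hearts was 0.665 times the mean for *Aldoa*, 0.803 for *Tpi1*, 0.44 for *Pgam2*, 1.02 for *Eno3* and 1.56 for *Pkm*. The median over all tested genes was 4.92, and over the 270 genes with at least 1 read pair per base it was 1.53. Those 270 genes had a median log2 fold change of 0.15.

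**Figure D3:**
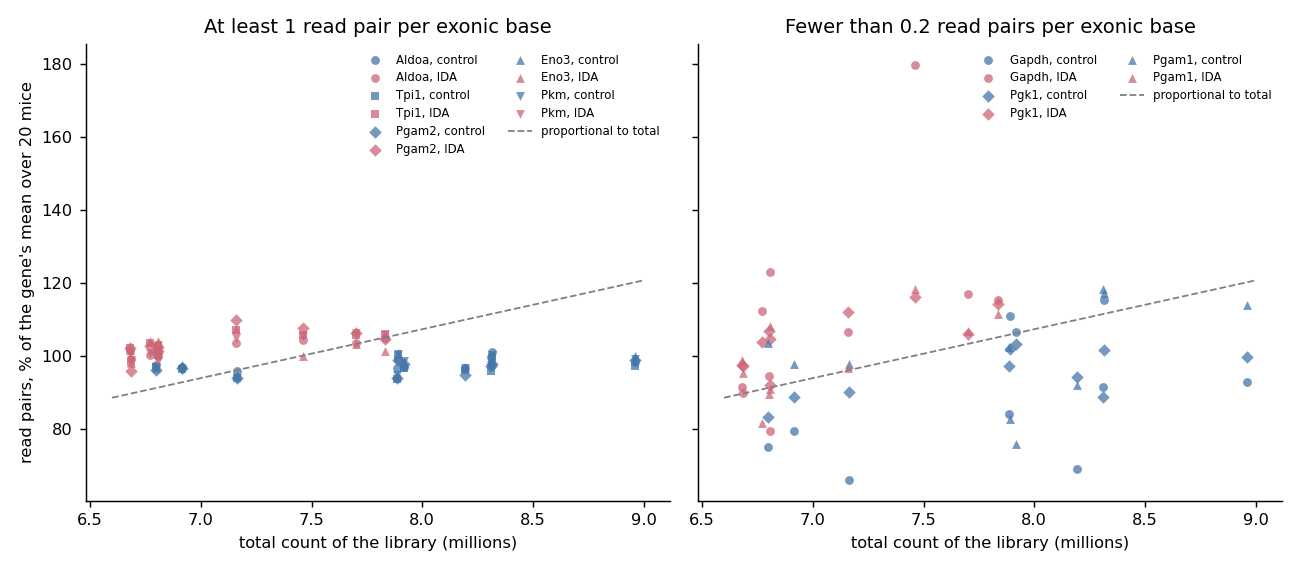
Read pairs of each gene as a percentage of its own mean over 20 mice (vertical axis) against the total count of the library (horizontal axis), with control mice in blue and IDA mice in red and a dashed line for counts proportional to the total. The 5 genes with at least 1 read pair per base (left) stay close to 100 at every total, and *Gapdh*, *Pgk1* and *Pgam1* (right) scatter more.

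Without any scaling to library size, an alternative chosen after the data were seen, 6 of the 8 genes were called higher in the IDA group, where 21.1% of all tested genes were. The read pairs of *Pgam2* numbered 1132 to 1193 in control and 1155 to 1323 in IDA libraries, and 9 of 10 IDA libraries were above all control libraries. For *Tpi1* and *Eno3* this held for 8 of 10, and for *Aldoa*, *Pgk1* and *Pkm* for 7 of 10, although IDA libraries had the lower totals. The unscaled log2 fold changes were 0.06 for *Aldoa*, 0.10 for *Tpi1*, 0.15 for *Pgk1*, 0.10 for *Pgam2*, 0.07 for *Eno3* and 0.07 for *Pkm* (adjusted p = 0.0237, 0.00336, 0.0436, 0.0111, 0.0189 and 0.0130, edgeR), where the median of all tested genes was -0.07. *Gapdh* had 0.32 and no longer passed (adjusted p = 0.0555).

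With the log2 library size as a covariate, 2 of the 8 genes were called higher, *Gapdh* at 0.46 on the log2 scale (adjusted p = 0.00965) and *Pgk1* at 0.17 (adjusted p = 0.00845), where 29.1% of all tested genes were. The other 6 lay between 0.0063 for *Eno3* and 0.05 for *Pgam2*, all without a call. The erythroid marker score is the mean log2 CPM of the 3 tested erythroid genes, not the sum given above, and its values in the groups do not overlap. With this score as a covariate, *Tpi1* and *Pgam2* were called higher (0.22 and 0.23, adjusted p = 0.0391 and 0.0277, edgeR), where 25.6% of all tested genes were. The 5 lost calls went with wider errors and, for *Pgk1*, with a smaller difference, at 0.17 (SE 0.09) for *Aldoa*, 0.41 (SE 0.20) for *Gapdh*, 0.15 (SE 0.08) for *Pgk1*, 0.21 (SE 0.09) for *Eno3* and 0.19 (SE 0.08) for *Pkm*. The median of the 8 was 0.20 with the erythroid score and 0.04 with the library size. All 8 log2 fold changes kept their sign in both fits.

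The fold changes of all genes followed gene length. Genes as long as *Pgam2* had, by the trend over all tested genes, a log2 difference of 0.31 between IDA and control, and those as long as *Pkm* 0.02, where the median tested gene has 2900 bp of exons. At the lengths of *Aldoa*, *Tpi1* and *Eno3* the trend stood at 0.15, 0.19 and 0.19, next to their own log2 fold changes of 0.15, 0.19 and 0.16. After removal of this trend in each mouse, 1 member was called higher, where 31.5% of all tested genes were, and 1 lower, where 23.5% were. *Pkm* was the higher one (log2 fold change 0.15, SE 0.05, adjusted p = 0.0145) and *Pgam2* the lower one (-0.12, SE 0.04, adjusted p = 0.0238). The median of the 8 was 0.0028 against 0.04 over all tested genes. The trend may be technical or biological, which was not tested, and its removal takes out both.

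**Figure D4:**
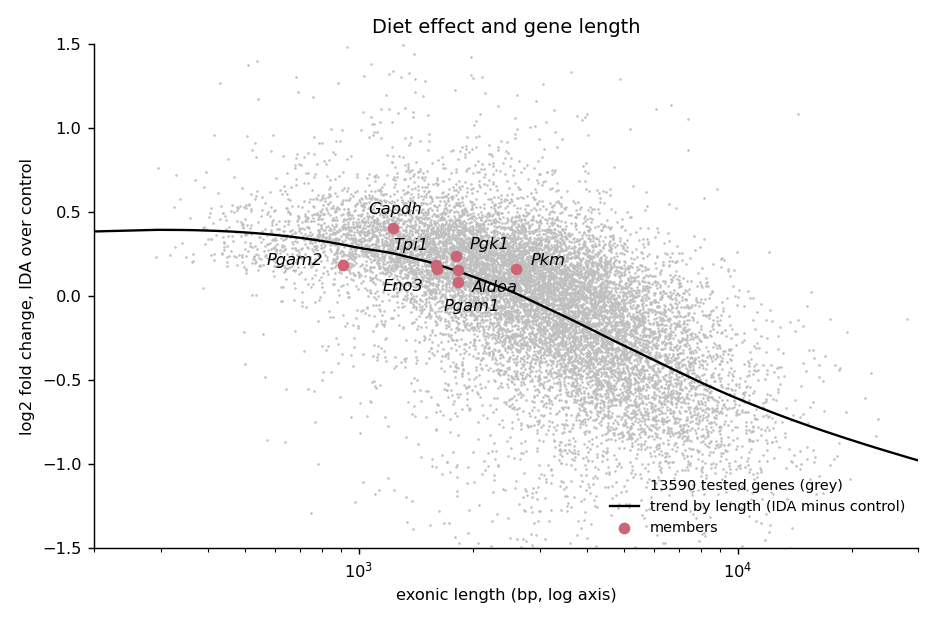
Log2 fold change of IDA over control (vertical axis) against exonic length in bp (horizontal log axis) for the tested genes (grey, with 142 genes outside the axes), with the 8 tested members in red and the trend as a black line. *Tpi1*, *Eno3* and *Aldoa* lie on or next to the line, *Pgam2* and *Pgam1* below it, and *Pkm*, *Pgk1* and *Gapdh* above it.

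When the trend on read pairs per base was removed together with that on length, the same 2 genes were called, *Pkm* higher at 0.07 (adjusted p = 0.000745) and *Pgam2* lower at -0.08 (adjusted p = 0.000477), where 31.3% of all tested genes were higher and 26.0% lower. With length and GC content removed together, none was called higher, where 27.1% of all tested genes were, both at an adjusted p below 0.05 (edgeR). At an unadjusted p below 0.05, no member was higher either. In that fit *Aldoa* (-0.18, adjusted p = 0.0147), *Pgam2* (-0.30, adjusted p = 8.28e-05) and *Eno3* (-0.15, adjusted p = 0.0289) were called lower, where 20.3% of all tested genes were. *Pgam2* thus was higher in the scaled counts and lower under all 3 corrections, and *Gapdh* and *Pgk1* stayed positive without a call in all 3.

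The library numbers in the column names form a lower and a higher run of consecutive numbers. The lower run holds 5 control and 7 IDA mice and the higher run 5 control and 3 IDA mice. In the lower run, where library totals did not overlap between the groups (control at least 7890559, IDA at most 7833916), the same 7 genes were called higher, with 30.2% of all tested genes. In the higher run, where totals overlapped, none was called higher, while 19.4% of all tested genes were, both at an adjusted p below 0.05 (edgeR). At an unadjusted p below 0.05, no member was higher either. The median log2 fold change of the 8 genes was 0.27 in the lower run and 0.05 in the higher run.

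The difference between the runs itself did not pass for any of the 8 genes (adjusted p = 0.673 to 0.968, edgeR), and 4 had an unadjusted p below 0.05. The share of all tested genes at that unadjusted threshold was not counted, so it is open whether these 4 stand out. Of all 13590 tested genes, 28 passed at an adjusted p below 0.05. These runs were defined from the column names after the data were seen, and what they stand for is not given in the sources used here. The study states that sequencing was divided over a pair of units and does not tie the numbers to them.

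**Figure D5:**
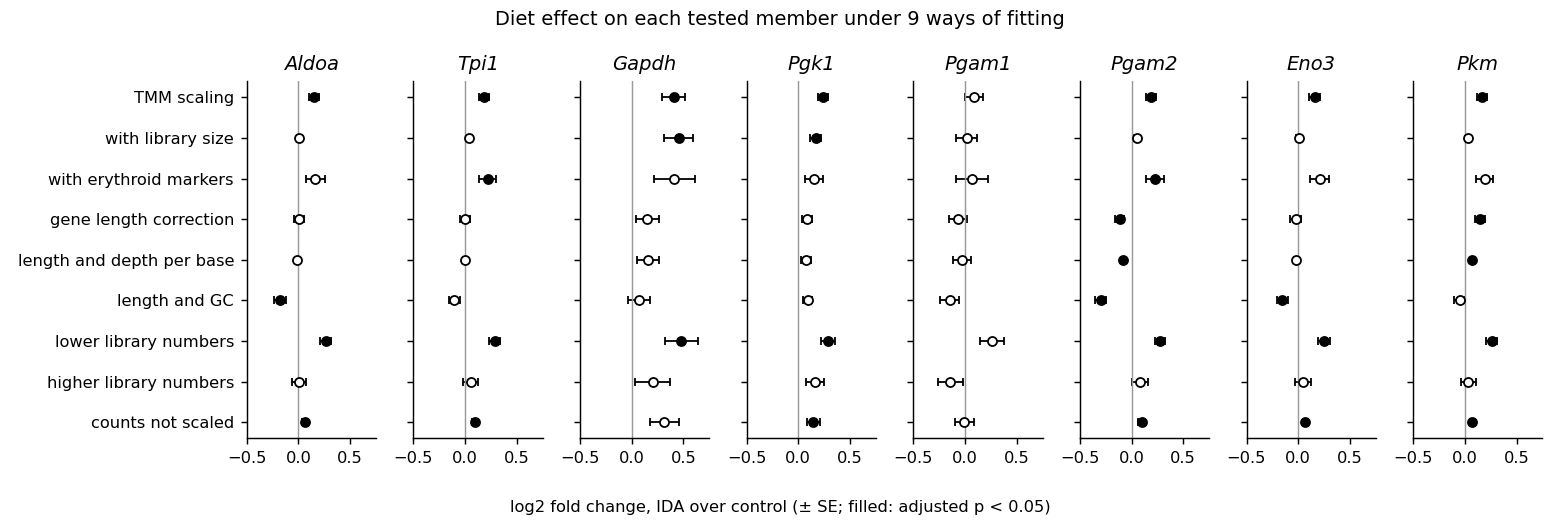
Log2 fold change of IDA over control (horizontal axes) with its standard error for each of the 8 tested members (panels) under 9 ways of fitting (rows), with filled points for an adjusted p below 0.05. Filled points lie to the right of 0 for 7 members with TMM scaling, and for *Pgam2* they lie to the left of 0 in the 3 fits that remove gene length.

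Other genes of the same steps moved in both directions. *Bpgm*, which makes 2,3-bisphosphoglycerate in red cells, had 59.5 to 85.4 CPM in control (median 68.8 CPM) and 84.6 to 228 CPM in IDA hearts (median 108 CPM), a rise of 0.80 on the log2 scale (SE 0.13, adjusted p = 1.71e-05, edgeR). IDA mouse 9 had the highest value of both *Bpgm* and the summed erythroid markers, and control mouse 9 the lowest of both. When the erythroid score entered as a covariate, *Bpgm* was at 0.09 on the log2 scale (SE 0.15, adjusted p = 0.62, edgeR). The score does not overlap between the groups, and the part of red cells in the rise was not tested.

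*Gapdhs*, the glyceraldehyde-3-phosphate dehydrogenase of sperm, fell by 0.38 on the log2 scale (adjusted p = 0.0259, edgeR), with 2.25 to 4.33 CPM in control and 1.77 to 3.25 CPM in IDA hearts. The groups overlapped, and its level was low. *Eno2*, the neuronal enolase, had a log2 fold change of -0.18 that did not pass (adjusted p = 0.27). *Pgk2* was at 0 in all 20 libraries, *Eno4* had 3 read pairs in the control and 5 in the IDA libraries together, *Pklr* had 10 in each group, and these 3 genes were not tested.

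Upstream, from glucose transport to phosphofructokinase, 7 of 10 tested genes were higher and 1 lower, with a median log2 fold change of 0.15. The ends of that list were *Pfkl*, a phosphofructokinase subunit, at 0.47 (250.5 ± 15.1 CPM in control and 347 ± 15.7 CPM in IDA hearts, adjusted p = 4.67e-08), and *Hk2*, the insulin-regulated hexokinase, at -0.17 (501 ± 15.8 and 446 ± 33.8 CPM, adjusted p = 0.000744). With the gene length correction, *Pfkl* was at 0.62, and *Hk2* turned to 0.17 (adjusted p = 0.000368). *Hk2* has 5511 bp of exons.

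Downstream, among the lactate and pyruvate genes, 7 of 12 were higher and 1 lower, with a median of 0.13. *Slc16a3*, the lactate exporter MCT4, was at 0.94 (adjusted p = 2.29e-05) and kept its call with the gene length correction (0.92, adjusted p = 3.97e-05). *Pdk1*, a kinase that inhibits pyruvate dehydrogenase, was at -0.11 (adjusted p = 0.0290) and turned to 0.20 with that correction (adjusted p = 0.000337).

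Among genes of the branches that leave lower glycolysis, 9 of 14 were higher and 2 lower, with a median of 0.19. *Phgdh*, which draws 3-phosphoglycerate into serine synthesis, had the largest rise, 0.89 (1.10 ± 0.448 and 2.03 ± 0.730 CPM, adjusted p = 0.00216), and *Gpd2*, the mitochondrial glycerol-3-phosphate dehydrogenase, the largest fall, -0.83 (49.4 ± 5.39 and 27.8 ± 5.15 CPM, adjusted p = 2.63e-07). Of the HIF-1 targets outside these lists or shared with them, 11 of 23 were higher and 3 lower, with a median of 0.20 and *Ankrd37* at the top with 0.99 (adjusted p = 2.63e-07). All of these counts stand beside the 35.0% of tested genes called higher.

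With the gene length correction, 8 of the 10 tested upstream genes were higher and 0 lower, where 31.5% of all tested genes were higher and 23.5% lower. The corresponding counts were 3 higher and 1 lower of the 12 lactate and pyruvate genes, 7 and 1 of the 14 branch genes, and 13 and 0 of the 23 HIF-1 targets. The medians were 0.21 upstream, 0.07 for lactate and pyruvate, 0.10 for the branches and 0.17 for the HIF-1 targets, beside 0.04 for all tested genes.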

How the data were processed

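Hearts of 10 control and 10 IDA mice were profiled by RNA-seq. Read pairs of 75 bases were mapped by the authors with STAR (mm10), duplicates were taken out, and the authors deposited unnormalized read-pair counts per gene, made without strand by featureCounts 1.4.5-p1. The study left out a contaminated sample of each group without naming it, so all 20 libraries were kept. Total counts lay between 6682177 and 8960688 per library. The 95% interval of a fold is that of the difference between the groups, from its standard error, and the spread between mice is given by SD and range.

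A gene entered the tests when 10 or more mice had 1 CPM or more, before any TMM adjustment (13590 genes). Diet was tested in edgeR (version 4.0.16, R 4.3.3), with TMM factors and its quasi-likelihood test. The Wald test of DESeq2 (version 1.42.0) was an alternative, in both cases with Benjamini-Hochberg adjustment over all tested genes. Trends on exonic length, read pairs per base and GC content (known for 94% of tested genes) were removed in each mouse by loess (span 0.5) and entered as offsets. Isoform ratios used permutation tests with 100000 resamples, and 0.5 was added to each count. The steps were tested on simulated data. Fits by library number and on unscaled counts were added after the data were seen.

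The members and the gene lists were chosen with earlier results of these data known. The text names all members, other isoforms of the same steps (1 is not reported here), and of each other list the called gene with the largest and smallest log2 fold change. Marker genes named beside them and the overlapping genes *Spsb2* and *Gm5506* were chosen after their values were seen. Promoter sequences are from RefSeq (GRCm38.p6), where all 10 members were matched.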

Additional observations from a re-analysis of the deposited data

Results flagged for a closer look

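*Bpgm* had 228 CPM in IDA mouse 9, set apart from the other 9 IDA mice by more than a Dixon test at the 95% level allows for 10 values. The same mouse had the highest sum of erythroid markers, 593 CPM. Chance sets off such a test in about 1 of 20 groups, and 58 groups of values were tested.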

How the results depend on the processing

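Of the 8 tested members, DESeq2, other normalizations (RLE, upper quartile), no filter, the library number as a covariate and a p below 0.01 in both packages left 7 called higher. The number called higher was 1 with the gene length correction, 1 with length and depth per base, 0 with length and GC, 2 with library size as a covariate (median of the 8 at 0.04), 2 with the erythroid score (median 0.20), 1 with the replicate block and the gene length correction together, and 0 within the higher run of library numbers. The number called lower was 1, 1 and 3 with those 3 corrections. All called genes numbered 9177, and 5906 within the higher run.

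Over 100 fits that each left out 1 control and 1 IDA mouse, 5 to 7 members were called higher and 8572 to 9379 genes were called. *Eno3* lost its call without control mouse 8 and IDA mouse 6 or 8 (adjusted p = 0.0518 and 0.0510), and *Aldoa* without control mouse 8 and IDA mouse 6 (adjusted p = 0.0510). The log2 isoform ratio difference ran from -1.05 to -0.59 for *Aldoa* to *Aldoc*, from 0.040 to 0.16 for *Pgam2* to *Pgam1* (p = 0.0399 to 0.622, below 0.05 in 2 of the 100) and from -0.14 to 0.34 for *Eno3* to *Eno1* (p = 0.267 to 0.999).

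Signs turned as follows, and the causes were not tested. With the gene length correction, *Tpi1* was at -0.00023, *Pgam1* at -0.063, *Pgam2* at -0.12, *Eno3* at -0.025, *Hk2* at 0.17, *Pdk1* at 0.20 and the *Pgam2* to *Pgam1* ratio at -0.062. With length and depth per base, *Aldoa* was at -0.010, *Tpi1* at -0.0034, *Pgam1* at -0.028, *Pgam2* at -0.080, *Eno3* at -0.022, *Pdk1* at 0.043 and that ratio at -0.062. With length and GC, *Aldoa* was at -0.18, *Tpi1* at -0.10, *Pgam1* at -0.15, *Pgam2* at -0.30, *Eno3* at -0.15, *Pkm* at -0.051, *Hk2* at 0.11 and *Pdk1* at 0.29. Within the higher run, *Pgam1* was at -0.14 and *Eno2* at 0.089, with unscaled counts *Pgam1* at -0.0050, and with the erythroid score *Eno2* at 0.0086. Ratios with *Aldoc* and *Eno1*, which were not tested as genes, could not be corrected for depth per base.

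The replicate numbers did not pair the mice (correlations from -0.28 to 0.26, with 3 of 10 mice closest to their own number). The replicate block left 7 members called higher and 8912 genes called, and together with the gene length correction put *Tpi1* at -0.00034, *Pgam1* at -0.058, *Pgam2* at -0.12 (adjusted p = 0.0648, no longer called), *Eno3* at -0.027, *Hk2* at 0.17 and *Pdk1* at 0.20. Few read pairs limit *Aldoc* and *Eno1*, and what duplicate removal does to the 5 members above 1 read pair per base was not tested.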
